A study of Homo sapiens with 8 samples.

Results

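The genes described here are 45 genes of the DNA replication machinery, of 20162 protein-coding genes in the annotation. They were chosen by name, from the helicase, origin recognition, polymerase, clamp, ligase and topoisomerase families, and not by a measured value. The choice was made with earlier results of these data known. Each gene was scored by whether a G4 ChIP-seq interval shared at least 1 bp with the stretch from 1 kb before to 1 kb after any of its annotated transcription start sites (TSSs). G4 ChIP-seq recovers fragmented chromatin with BG4, an antibody that binds folded G-quadruplexes (G4s), four-stranded structures formed by runs of guanine. It was performed on untreated, asynchronous cells of 2 human lines, K562 (from a chronic myelogenous leukemia) and HepG2 (from a hepatocellular carcinoma), after RNase A treatment of the fixed and sonicated chromatin. No gene was altered and no agent was added in either line, and each line is a single tumour-derived culture. For each line the labels give 3 ChIP libraries beside 1 of input chromatin, while the deposited lists merge 8 replicates of K562 and 9 of HepG2. These come from 3 independent experiments per line with technical replicates in each, so replicates of an interval are not all independent.

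An interval is high-confidence when 5 or more of the 8 K562 replicates, or 6 or more of the 9 for HepG2, contained it, and lower-confidence when 2 or more replicates of its line did. The lists hold 9205 and 19249 intervals for K562 and 8805 and 28387 for HepG2. An interval is given by its position alone, so its height, its depth and the spread between replicates are unknown and no difference below was tested. The 95% Wilson intervals cover the counting of genes or intervals only. The lists hold no expression values, so the identity of the lines was not checked against marker genes.

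Replication starts where the origin recognition complex (ORC), CDC6 and CDT1 load the MCM2-7 helicase ring onto DNA before S phase. The kinase CDC7 with DBF4, and then CDC45 and GINS, turn the ring into a moving helicase, which DNA polymerases follow with the sliding clamp PCNA. Promoters of these genes are known for control through the cell cycle by E2F factors and for CCAAT and GC boxes, and most lie in CpG islands.

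A selection of the sequences that carry the canonical G4 motif inside high-confidence intervals of replication genes is shown first. A match does not show that a sequence folds, and most intervals here held no complete motif, as given below. The motif searched was 4 runs of at least 3 G joined by loops of 1 to 7 bases, on either strand. Runs of at least 3 G are in capitals, each sequence is written 5′ to 3′ on its G-rich strand, and positions are on hg19 (GRCh37). The first 6 lie in high-confidence intervals of both lines, and the last pair, at CDT1 and GINS2, lie in a K562 high-confidence interval and not in a HepG2 one. PCNA held a pair of motifs at an alternative start in both lines, and further motifs of RPA1 and LIG1 are not printed.
MCM2, chr3:127317147-127317172, minus strand: GGGacacggaGGGGcGGGccagaGGG
MCM9, chr6:119256383-119256404, plus strand: GGGtcccGGGcGGGGagaGGGG
ORC6, chr16:46723134-46723159, minus strand: GGGcccGGGGGcGGGGctagagaGGG
GMNN, chr6:24775503-24775523, plus strand: GGGagccGGGGcGGGGttGGG
RPA1, chr17:1733185-1733208, plus strand: GGGaccatGGGtGGGtcacgtGGG
LIG1, chr19:48673699-48673720, plus strand: GGGaggaGGGcGGGaaaaGGGG
CDT1, chr16:88870090-88870110, minus strand: GGGGGGaGGGaaGGGacGGGG
GINS2, chr16:85722779-85722797, minus strand: GGGcGGGGcGGGGccGGGG

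High-confidence G4 intervals lay at the starts of most of these genes in both lines. For K562, 31 of 45 genes (68.9%, 54.3 to 80.5) had one, where the share over all protein-coding genes was 35.7%. In HepG2 it was 33 of 45 genes (73.3%, 59.0 to 84.0), with a share of 30.7% over all genes. Both lines had one at 28 genes (62.2%, 47.6 to 74.9), against 24.3% of all genes. These 28 genes run through the whole machinery, from origin recognition (ORC3, ORC4, ORC6) and loading (CDC6) to ligation (LIG1) and the topoisomerases TOP1 and TOP2A.

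The remaining genes divided unevenly between the states. K562 alone had a high-confidence interval at 3 genes (6.67%, 2.29 to 17.9), CDT1, RPA2 and PRIM1, where 11.4% of all genes had that state. HepG2 alone had one at 5 genes (11.1%, 4.84 to 23.5), MCM5, MCM8, ORC1, ORC2 and FEN1, where the share over all genes was 6.47%. Both 95% intervals include the share over all genes. In 6 of these 8 genes the other line had a lower-confidence interval at the same start. Over all genes, the other line had a lower-confidence interval at 1651 of the 2297 K562-only and 815 of the 1305 HepG2-only genes, so this was common. A high-confidence K562 interval with no HepG2 interval of any kind was seen at PRIM1 alone (3.2% of all genes), and the reverse at ORC2 alone (2.43% of all genes).

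With the lower-confidence lists, an interval was present at 39 of 45 genes (86.7%) in each line, where the shares over all genes were 50.1% and 51.2%. Lower-confidence intervals alone were present at 7 of 45 genes, where 3371 of all 20162 genes had that state. GINS3 and RFC3 were the only members with none in any list, a state shared by 41.1% of all genes. The bar plot of these shares also holds 34 further replication genes that were listed separately.

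**Figure D1:**
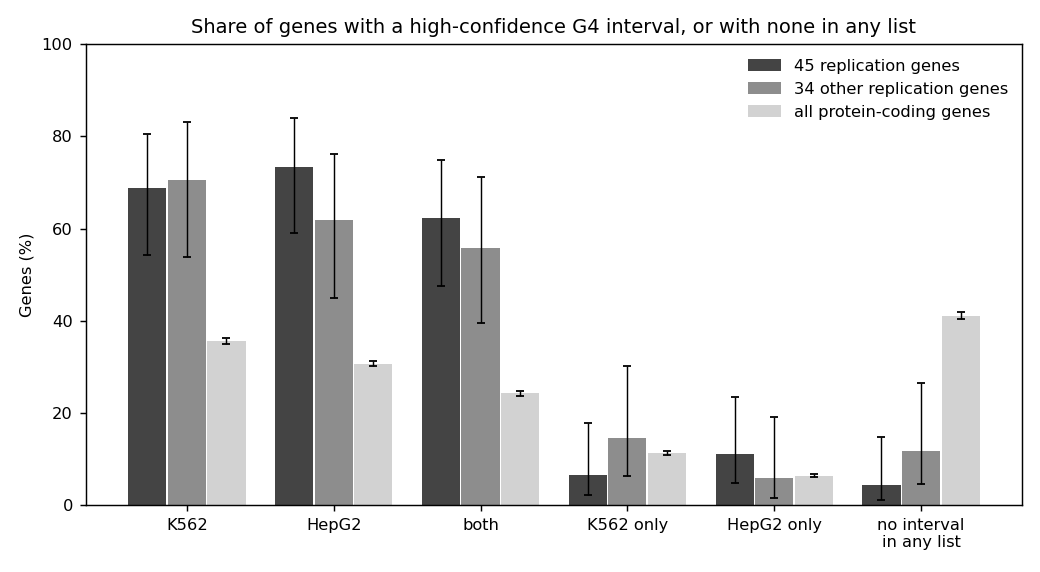
Share of genes (percent, vertical axis) with a high-confidence G4 interval within 1 kb of a TSS, by line and combination of lines, and with no interval in any list, for the 45 replication genes, 34 other replication genes and all 20162 protein-coding genes. Lines on the bars are 95% Wilson intervals, which cover counting only. The 45 genes reach 68.9% in K562 and 73.3% in HepG2, where all genes reach 35.7% and 30.7%.

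The MCM2-7 genes encode the ring-shaped replicative helicase. Of these 6 genes, 4 had a high-confidence interval in K562 and 5 in HepG2. At MCM2 the K562 interval was 277 bp wide (chr3:127317007-127317283) and lay wholly inside the HepG2 interval of 303 bp, with centres 1 bp apart. Both covered the TSS and the motif printed above, which is on the strand opposite to the gene. MCM3 had intervals of 213 bp and 296 bp that ended 80 and 16 bp before the TSS, and MCM4 had intervals of 209 bp and 139 bp.

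MCM7 was the only gene of the ring with a pair of high-confidence intervals in each line. The first, 230 bp wide in K562 and 146 bp in HepG2, was centred 99 and 125 bp upstream. The other, 154 bp and 138 bp wide, was centred 607 and 624 bp downstream, in an intron of the canonical transcript. Its centres lay 10 and 7 bp from another annotated MCM7 start. At MCM5 HepG2 had a high-confidence interval of 57 bp, inside a lower-confidence interval of 300 bp, and K562 a lower-confidence interval of 172 bp. MCM6 had only a lower-confidence K562 interval, 162 bp wide (chr2:136633970-136634131), and no HepG2 interval. The subunits of the ring therefore differed in state.

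The other MCM genes serve outside the ring. MCM8 and MCM9 form a helicase of homologous recombination, and MCM10 helps activate the replicative helicase. MCM9 and MCM10 had high-confidence intervals in both lines. MCM10 had one of the narrowest K562 intervals, at 93 bp, where the HepG2 interval was 184 bp wide. MCM8 had a HepG2 interval of 204 bp and only a lower-confidence K562 interval of 146 bp. At MCM9 the intervals at the canonical start spanned it in both lines, 298 bp wide in K562 and 223 bp in HepG2, and held the motif printed above.

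The ORC subunits bind origins and start loading. High-confidence intervals were found at 3 of 6 ORC genes in K562 and 5 of 6 in HepG2, so that ORC1 and ORC2 were called in HepG2 alone. ORC3 had similar intervals of 252 bp and 223 bp, 222 bp of which were shared. ORC4 had a K562 interval of 127 bp and a HepG2 interval of 257 bp, whose centre lay 68 bp further upstream. ORC1 had a HepG2 high-confidence interval of 102 bp, but the lower-confidence intervals of the lines were almost equal there, 214 bp in K562 and 213 bp in HepG2. ORC5 had a lower-confidence K562 interval of 136 bp alone.

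ORC6 encodes the smallest subunit of the complex and had the most high-confidence intervals among the 6 ORC genes. HepG2 had 3 high-confidence intervals of 70, 401 and 134 bp, all inside a single lower-confidence interval of 1074 bp. K562 had 1 of 219 bp (chr16:46723052-46723270), which lay wholly inside the 401 bp interval and held the same motif, 425 bp upstream of the canonical TSS. The HepG2 interval of 134 bp, next to the TSS, overlapped no K562 interval of either list. ORC6 shares this stretch with VPS35, a retromer subunit gene that starts 481 bp away in the opposite direction.

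CDC6 and CDT1 load the helicase, and GMNN encodes geminin, the inhibitor of CDT1. CDC6 intervals were 268 bp wide in K562 and 342 bp in HepG2, and the former lay wholly inside the latter. CDT1 was K562-only at high confidence, with 101 bp (chr16:88870026-88870126) of 80.2% GC. HepG2 had a lower-confidence interval of 175 bp over the same motif, and 3 more lower-confidence intervals further into the gene. GMNN had a pair of intervals in each line, at the TSS (147 and 141 bp) and in an intron centred 428 and 415 bp downstream (245 and 308 bp). The intronic ones were centred 48 and 61 bp upstream of another annotated GMNN start. The motif of GMNN was in the intronic interval of both lines.

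GINS and CDC45 complete the active helicase. GINS2, GINS4 and CDC45 had high-confidence intervals at their canonical starts in both lines, and all 3 were wider in K562 (258, 384 and 300 bp) than in HepG2 (171, 301 and 168 bp). The GINS4 interval was the widest of all K562 intervals at these genes. At GINS2 the K562 interval extended over the motif printed above, and the HepG2 interval, which lay inside it, did not reach it. GINS1 had a HepG2 interval of 196 bp at its canonical start, with no K562 interval of either list there. The GINS1 intervals shared by both lines, 262 and 291 bp wide, were centred 16721 and 16713 bp upstream, at an alternative start. GINS3 had no interval of either list in either line, and its promoter GC content was 56.3%.

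CDC7 and its activator DBF4 form the kinase that fires origins. DBF4 had wide high-confidence intervals in both lines, 351 bp in K562 and 294 bp in HepG2. CDC7 had none, but HepG2 had a pair of lower-confidence intervals of 249 and 148 bp centred downstream of its TSS. The catalytic subunit and its activator therefore differed in state.

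PCNA, the sliding clamp, had intervals at its canonical start of 150 bp in K562 and 332 bp in HepG2, the narrower wholly inside the wider. HepG2 alone had a further high-confidence interval of 185 bp in an intron, where K562 had a lower-confidence one. A shared interval, 308 bp in K562 and 495 bp in HepG2, lay at an alternative start 6888 and 6797 bp upstream of the canonical one, close to the start of CDS2. The HepG2 one was the widest at any of these genes.

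The RFC genes encode the loader of the clamp. Of the 5 loader genes, RFC2 and RFC5 had high-confidence intervals in both lines, of 247 and 169 bp at RFC2 and of 118 and 93 bp at RFC5. RFC1, RFC3 and RFC4 had none. RFC4 had a lower-confidence interval of 198 bp in K562 alone. RFC1 had one of 150 bp in K562 at its start, and the only HepG2 interval lay at the edge of the window, centred 1020 bp upstream.

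RPA1 and RPA2 encode subunits of RPA, which coats single-stranded DNA. RPA1 intervals were alike, at 231 bp (78.8% GC) in K562 and 205 bp (78.5% GC) in HepG2. RPA2 had a K562 interval of 230 bp (59.6% GC), and HepG2 had a lower-confidence interval of 157 bp there.

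The polymerase genes encode the enzymes that copy DNA, with POLA2 and the primase genes PRIM1 and PRIM2 for priming, POLD1, POLD2 and POLD3 for polymerase delta, and POLE and POLE2 for polymerase epsilon. POLD1 had wide intervals, 361 bp in K562 and 303 bp in HepG2, and POLE had 295 and 200 bp. POLA2 and POLD2 were less even. POLA2 had 203 bp in K562 and 67 bp in HepG2, and POLD2 had 212 bp in K562 and 11 bp in HepG2. The HepG2 interval of 11 bp lay inside a lower-confidence interval of 320 bp, and HepG2 had 32 genes in place of 33 once intervals under 50 bp were left out.

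POLD3 was called at high confidence only through an alternative start. Its intervals, 253 bp in K562 and 205 bp in HepG2, were centred 99331 and 99323 bp upstream of the canonical TSS, next to the start of LIPT2. At the canonical start both lines had a lower-confidence interval, of 105 and 66 bp. When canonical starts alone were scored, the count of genes with a high-confidence interval was 29 for K562, 32 for HepG2 and 26 for both, where the shares over all genes were 32.8%, 27.8% and 22.1%.

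PRIM1 was a contrast with its partner PRIM2. PRIM1 had a K562 high-confidence interval of 174 bp (chr12:57146078-57146251) within a lower-confidence one of 256 bp, and no HepG2 interval. PRIM2, whose promoter GC content was 53.0% against 67.3% at PRIM1, had a lower-confidence HepG2 interval of 140 bp alone. POLE2 also had one only there, of 53 bp.

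FEN1 and LIG1 trim and seal Okazaki fragments. LIG1 had wide intervals at its start, 375 bp in K562 and 354 bp in HepG2. K562 alone had a further high-confidence one of 90 bp, with motifs on the gene's strand. This was centred 520 bp downstream in an intron, 135 bp upstream of another annotated LIG1 start. HepG2 had a lower-confidence interval of 160 bp there, over the same motifs. FEN1 had a HepG2 high-confidence interval of 50 bp within a lower-confidence one of 283 bp, and K562 had a lower-confidence interval of 354 bp over the same stretch.

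TOP1 and TOP2A, which relieve the twist ahead of the fork, had intervals in both lines. Those of TOP1 were 328 and 345 bp wide and shared 320 bp. TOP2A intervals were 152 and 227 bp wide and had the lowest GC content of all high-confidence intervals here, 51.3% and 53.3%. The plot of intervals by gene start shows the pattern for all 45 genes.

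**Figure D2:**
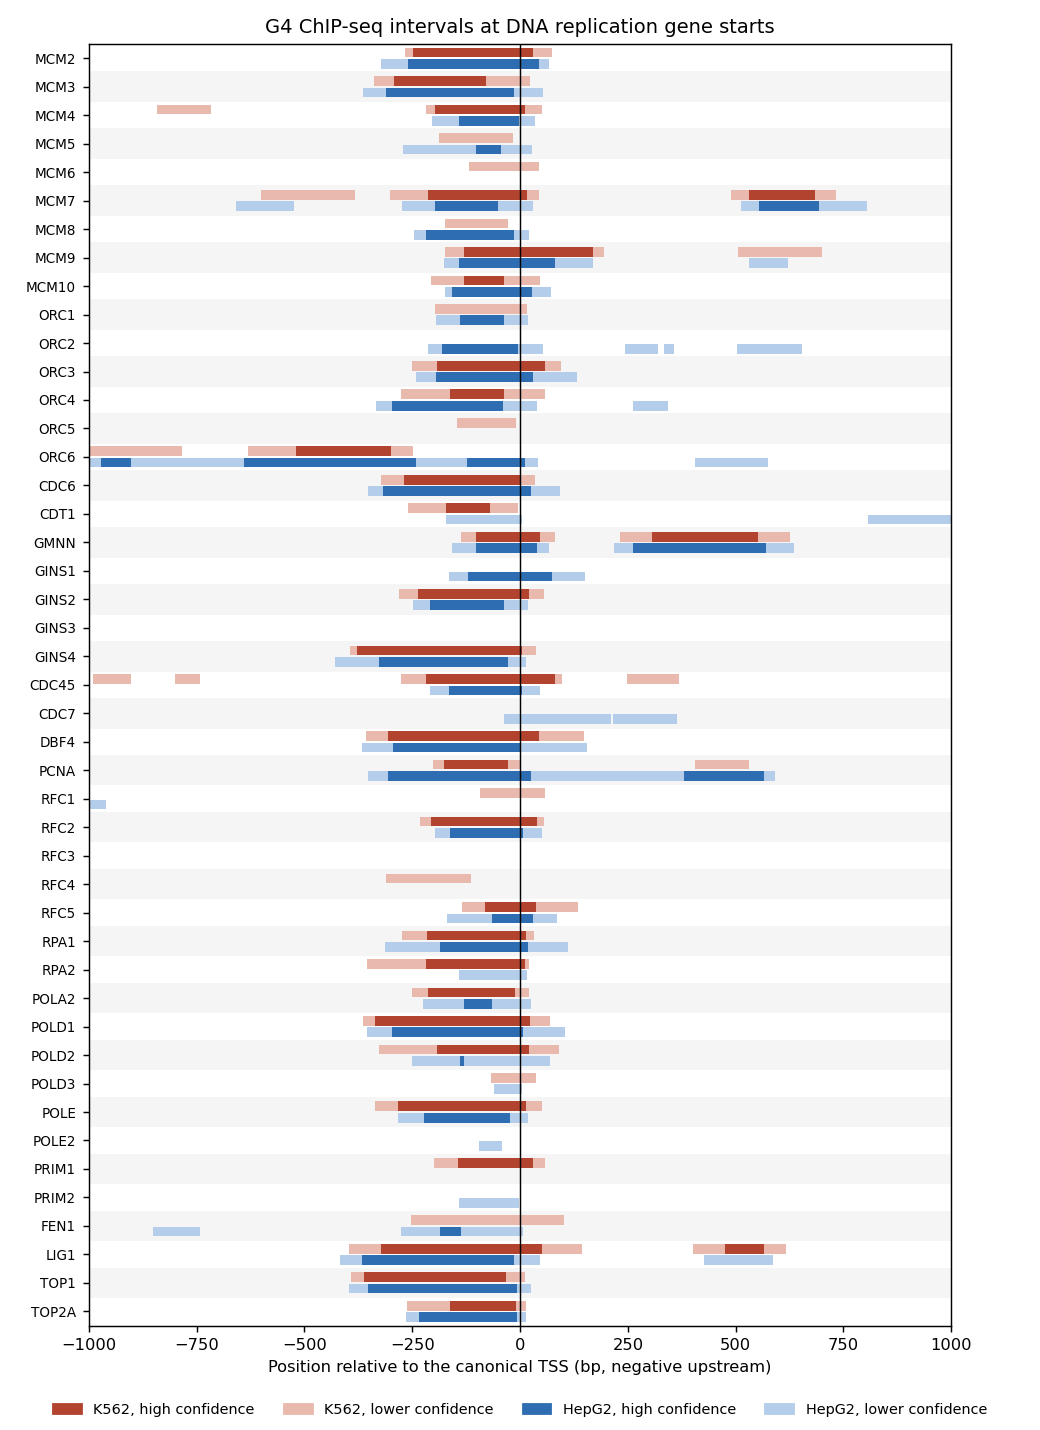
Intervals within 1000 bp of the canonical TSS of each of the 45 genes, by position relative to that TSS (bp, negative upstream). Red bars are K562 and blue bars HepG2, dark for high confidence and light for lower confidence, and no bar is drawn where no interval lies, as at GINS3 and RFC3. Of the dark bars, 28 of 32 in K562 and 34 of 37 in HepG2 are centred upstream of the TSS, 19 and 14 bars cover it, and intervals at alternative starts further away, as at POLD3, are outside the plot.

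Stretches of 5 promoters are shown next, 1 for each of 5 combinations of states, so that their G content can be read beside the calls. They were chosen after the values were seen and do not stand for the other genes of their state. Each is the longest stretch, up to 150 bases, within 300 bp upstream of the canonical TSS that no exon of a protein-coding gene covers. Each is written on the gene's strand on hg19, with runs of at least 3 G or 3 C in capitals, since a C run is a G run of the other strand.
ORC2 (HepG2 only), chr2:201828404-201828553, minus strand: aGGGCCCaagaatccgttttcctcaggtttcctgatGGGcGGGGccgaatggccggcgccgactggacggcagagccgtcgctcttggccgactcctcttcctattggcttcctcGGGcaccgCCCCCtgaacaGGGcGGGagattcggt
PRIM1 (K562 only), chr12:57146159-57146232, minus strand: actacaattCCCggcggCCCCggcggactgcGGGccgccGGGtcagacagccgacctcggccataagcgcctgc
MCM6 (K562 lower confidence only), chr2:136634014-136634163, minus strand: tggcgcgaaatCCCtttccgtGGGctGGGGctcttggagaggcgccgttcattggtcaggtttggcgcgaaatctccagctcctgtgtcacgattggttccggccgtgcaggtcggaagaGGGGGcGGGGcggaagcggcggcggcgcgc
TOP2A (both lines), chr17:38574149-38574298, minus strand: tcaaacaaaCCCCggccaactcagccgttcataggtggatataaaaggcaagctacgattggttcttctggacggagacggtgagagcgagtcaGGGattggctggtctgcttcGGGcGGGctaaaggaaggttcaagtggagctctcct
RFC3 (no interval), chr13:34392056-34392205, plus strand: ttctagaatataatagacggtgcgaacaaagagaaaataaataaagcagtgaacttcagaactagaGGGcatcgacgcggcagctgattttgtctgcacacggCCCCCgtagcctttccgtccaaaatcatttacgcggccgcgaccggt

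None of these 5 stretches holds a complete motif. ORC2, with a HepG2 interval of 176 bp (chr2:201828388-201828563) centred 92 bp upstream, has 6 G runs and 2 C runs in 150 bases. TOP2A, with an interval in both lines, has 3 G runs and 1 C run, and RFC3, without an interval, has 1 of each. MCM6 has 4 G runs and 1 C run, no fewer than TOP2A, and had no high-confidence interval. PRIM1, with an interval in K562 alone, has 2 G runs and 2 C runs in a shorter stretch of 74 bases. With 5 stretches chosen after the values were seen, a relation of runs to state cannot be read from them.

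The same stretches were marked in both lines. At the 45 genes lay 36 high-confidence intervals of K562 and 41 of HepG2. Among those of K562, 32 (88.9%, 74.7 to 95.6) overlapped a HepG2 high-confidence interval, where 57.4% of all K562 intervals at protein-coding gene starts did. Of the HepG2 intervals 32 (78.0%, 63.3 to 88.0) overlapped a K562 one, against 70.5% of all. Counted against lower-confidence intervals of the opposite line, the overlaps were 35 of 36 and 38 of 41, against 82.7% and 84.8% of all. The intervals with no counterpart of either kind were that of PRIM1 in K562, and in HepG2 those of ORC2, GINS1 (196 bp) and ORC6 (134 bp).

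The 32 overlapping pairs were centred a median of 16.5 bp apart, against 25 bp for 4339 pairs at all gene starts, and at most 91 bp (the upstream PCNA interval). In 21 pairs (65.6%) the centres were at most 20 bp apart, against 41.7% over all genes. The K562 interval was the wider in 19 pairs (59.4%, 63.0% over all), with median widths of 246 bp in K562 and 225 bp in HepG2. Across these 32 pairs the widths had a Pearson correlation of 0.45 and a Spearman correlation of 0.50, and 0.46 and 0.43 across all 4339 pairs. The pairs share base composition, since they lie on the same DNA. The scatter of the pairs shows positions close to the line of equality and widths spread on either side of it. Only overlapping intervals were paired, which by itself keeps the positions close.

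**Figure D3:**
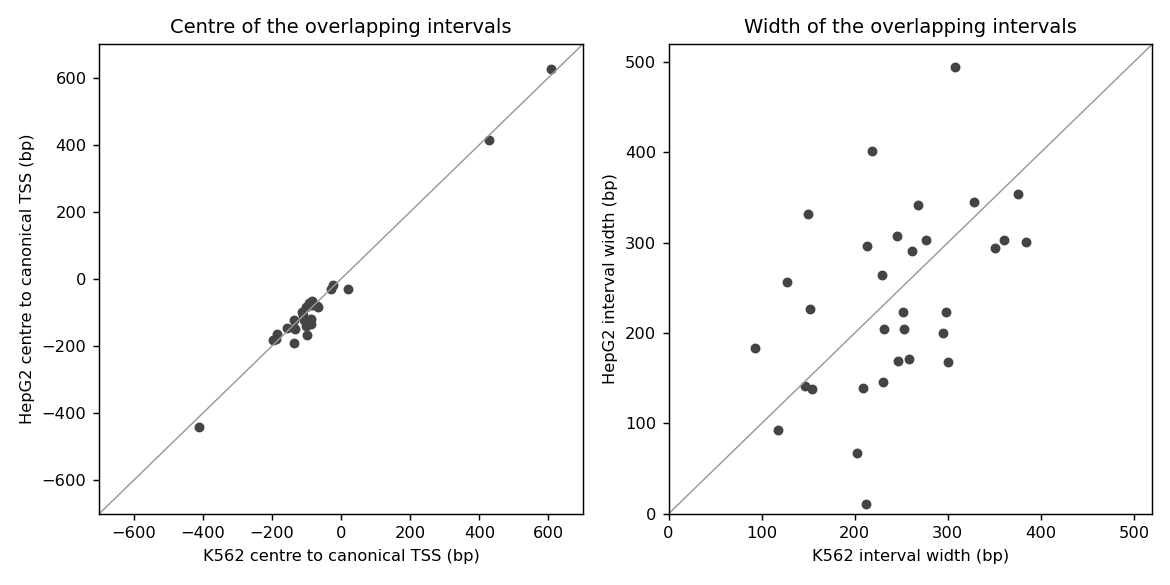
High-confidence intervals that overlap between the lines at replication genes, 1 point per pair. Left, the distance of the centre from the canonical TSS in HepG2 against K562 (bp), for pairs within 1000 bp of it. Right, widths in HepG2 against K562 (bp) for all 32 pairs. Grey lines mark equality. Centres differ by at most 91 bp, a distance that the choice of overlapping pairs limits. Widths differ more, as at POLD2 with 212 bp in K562 and 11 bp in HepG2.

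Intervals at the replication genes were slightly wider than those at all gene starts, with a median of 230.5 bp in K562 (203 bp over all) and 204 bp in HepG2 (182 bp over all). They also filled more of the lower-confidence interval around them, a median of 70.02% in K562 (63.1% over all) and 63.8% in HepG2 (55.3% over all). Their median GC content was 70.2% in K562 and 68.8% in HepG2, beside 71.2% and 67.5% over all. Widths ranged from 90 to 384 bp in K562 and from 11 to 495 bp in HepG2.

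The intervals lay mostly just upstream of the start, as those of all genes did. In K562, 32 of 36 were centred within 1 kb of the canonical TSS, at a median of 100.5 bp upstream, and in HepG2 37 of 41 were, at 108 bp upstream. Over all genes 84.3% and 84.1% were within 1 kb, with medians of 86 and 107 bp upstream. Of those within 1 kb, 28 of 32 in K562 and 34 of 37 in HepG2 were centred upstream of the canonical TSS, close to the 85.7% and 87.9% over all gene starts. They covered the TSS itself in 19 cases in K562 and 14 in HepG2. Those within 1 kb that were not centred upstream lay in canonical introns of MCM7, GMNN, LIG1 and PCNA, or at the 5′ end of MCM9. Those of MCM7 and GMNN lay close to other annotated starts, as given above.

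Many of these starts face another gene. A protein-coding gene started in the opposite direction within 1 kb of the canonical TSS at 15 of 45 genes (33.3%), against 11.7% of all genes. The distance between the starts ran from 94 bp (MCM8 and TRMT6) to 763 bp (MCM4 and PRKDC). Of these 15 genes, 12 had a high-confidence interval in K562 and 14 in HepG2 (80.0% and 93.3%), where 61.5% and 60.03% of all genes with such a neighbour did. At 12 genes in K562 and 11 in HepG2 an interval was centred between the starts of the pair, as at RPA1 and SMYD4, POLE and PXMP2, and ORC3 and RARS2. This position was not counted over all genes with such a neighbour, so it cannot be called particular to the members.

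Intervals between facing starts cannot be given to one gene of a pair. In K562 9 of 36 and in HepG2 12 of 41 high-confidence intervals were nearer to the start of another coding gene, facing or not. Among them were those of MCM2 (nearer to TPRA1), MCM7 (AP4M1), DBF4 (SLC25A40) and FEN1 (TMEM258). Others lay at alternative starts of genes without a facing neighbour, as at MCM9 (ASF1A) and POLD3 (LIPT2). This count was not made over all gene starts. When an interval was given only to the gene with the nearest start, 25 genes kept one in K562, 25 in HepG2 and 21 in both, where the shares over all genes were 30.8%, 25.8% and 19.5%. Of the 30 genes without a facing neighbour within 1 kb, 19 (63.3%) had an interval in K562, and 19 in HepG2, against 32.2% and 26.9% of all genes of that kind.

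Other promoter features also went with these counts, and their part in them was not tested. The members had a median of 8 annotated TSSs and a scored stretch of 8005 bp, against 5 and 4584 bp over all genes. The promoter, taken as 250 bases before to 50 after the canonical TSS, had a median GC content of 63.7% for the members and for all genes alike. Among promoters of under 60% GC, 6 of 11 members had an interval in K562 and 6 in HepG2, where 12.7% and 15.1% of all genes did. At 60% to 70% GC it was 18 and 21 of 27, against 46.0% and 42.5%. At 70% GC or more it was 7 and 6 of 7, against 53.9% and 37.7%.

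Within the 45 genes, median promoter GC content was 65.7% in the 28 genes with high-confidence intervals in both lines and 64.0% in the 8 with one in 1 line. It was 63.3% in the 7 with lower-confidence intervals alone. GINS3 had 56.3% and RFC3 53.0%. The states overlapped, as the plot of promoter GC content shows, with POLD3, called in both lines through its alternative start, at 50.3%.

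**Figure D4:**
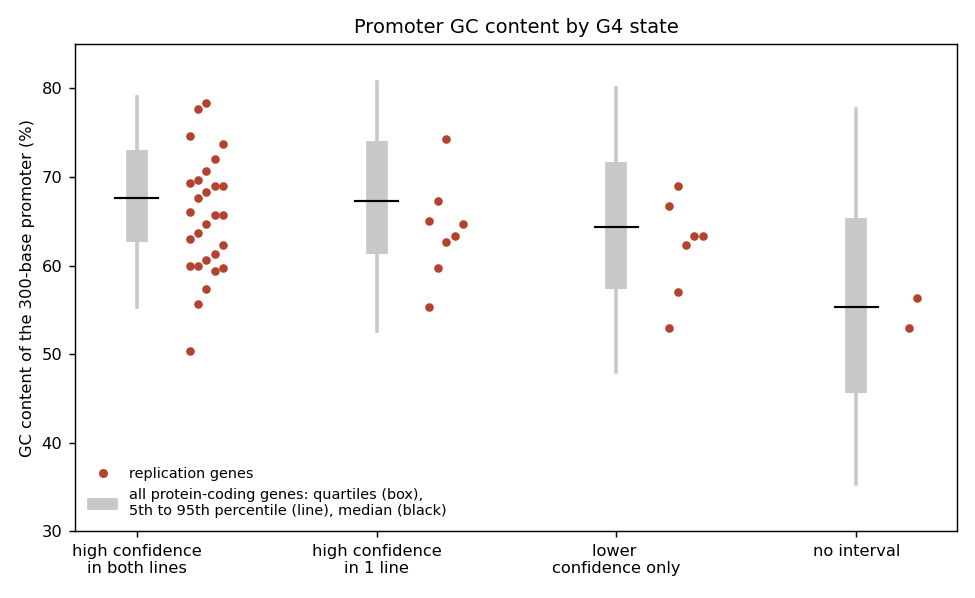
GC content (percent) of the 300-base promoter by G4 state. Red points are replication genes. Grey boxes are the quartiles over all protein-coding genes of that state, thin lines the 5th to 95th percentile, and black lines the median. Members in the first state range from 50.3% to 78.3%, and GINS3 and RFC3, with no interval, lie at 56.3% and 53.0%. The vertical axis starts at 30%.

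A complete G4 motif was present in a minority of the intervals. It was found in 11 of 36 K562 intervals (30.6%, 18.0 to 46.9) and 8 of 41 HepG2 intervals (19.5%, 10.2 to 34.01), where 34.9% of K562 intervals at all gene starts, and 1509 of 6035 in HepG2, held one. The 11 K562 intervals belong to 10 genes, with LIG1 counted at its start and in its intron, and the 8 HepG2 intervals to 8 of those genes. With 50 bp added on either side the counts were 13 of 36 (36.1%) and 11 of 41 (26.8%), against 46.0% and 35.6% over all. Of the 9 motif-bearing K562 intervals within 1 kb of the canonical TSS, 3 had motifs on the gene's strand, 5 on the opposite strand and 1 on both, where the shares over all gene starts were 47.8%, 42.3% and 9.86%. In the 6 of HepG2, 2 had them on the gene's strand and 4 on the opposite one, against 47.3% and 46.6% over all.

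Shorter G runs were nearly general. Of the 25 K562 intervals without the motif, 24 held the same pattern with runs shortened to 2 G, as did 30 of the 33 in HepG2. This pattern is frequent, and 91.1% of K562 and 85.8% of HepG2 intervals at all gene starts held them.

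The promoters were also read for letters of known elements on both strands. These were the E2F core (TTTGGCGC, TTTCCCGC, TTTGCCGC or TTTCGCGC), the CCAAT box (CCAAT), the cell cycle homology region (CHR, TTTGAA) and the GC box (GGGCGG). A GC box can lie inside a G4 motif, and the E2F letters can overlap a GC box at their ends. The E2F core was present in 20 of 45 promoters (44.4%), against 4.33% of all promoters of this length. The CCAAT box was in 26 (57.8%, all 35.9%), the GC box in 33 (73.3%, all 61.0%) and the CHR in 3, DBF4, POLD1 and TOP2A (6.67%, all 11.6%). The G4 motif was in 11 promoters (24.4%, all 33.6%).

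All 6 genes of the MCM2-7 ring had an E2F core in this window, as did GINS1, GINS2 and GINS3, CDC6, CDT1 and POLE. Of 14 genes with an E2F core in the promoter and a K562 high-confidence interval, 8 held the letters in an interval, and in HepG2 7 of 15 did. The CCAAT letters were inside an interval in 19 of 20 genes in K562 and 19 of 22 in HepG2, and the GC box in 22 of 24 and 25 of 27. This count per gene was not made over all genes, so for none of these letters can it be called particular to the members. Counted over intervals, the E2F letters were in 9 of 36 in K562 (all 3.45%) and 9 of 41 in HepG2 (all 3.10%), and the CCAAT letters in 22 (all 33.4%) and 26 (all 39.1%). The GC box was in 29 (all 75.5%) and 33 (all 64.6%). A match is a description of letters and says nothing about the binding of a factor.

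The counts of genes with a G4 interval were split by these letters as well. With the E2F core, 14 of 20 had one in K562 and 15 of 20 in HepG2, and without it 17 of 25 and 18 of 25. Over all genes the shares were 47.1% and 43.4% with it and 35.1% and 30.2% without it. Both GINS3 and RFC3 have the E2F core. The CCAAT box went with more, 20 and 22 of 26 genes with it, and 11 of 19 in each line without it. Over all genes, 39.6% and 38.7% of those with a CCAAT box and 33.5% and 26.3% of those without had an interval in K562 and HepG2. The bar plot of sequence matches shows the E2F core as the match with the largest ratio between these genes and all genes among the 5 searched.

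**Figure D5:**
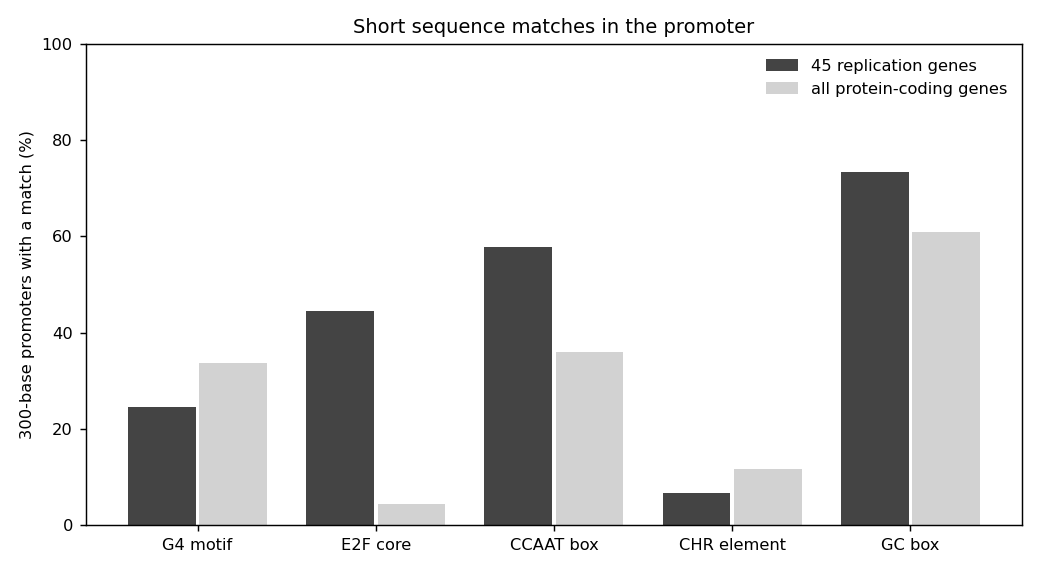
Share of 300-base promoters (percent, vertical axis) that hold the G4 motif or the letters of 4 known elements on either strand, for the 45 replication genes (dark) and all protein-coding genes (light). The E2F core is in 44.4% of the former and 4.33% of the latter, and the G4 motif in 24.4% and 33.6%.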

How the data were processed

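G4 ChIP-seq libraries and inputs of K562 and HepG2 were sequenced by the authors, who used cutadapt for trimming, BWA for alignment to hg19 and Picard for duplicates, called peaks per replicate with MACS2 and merged replicates with bedtools. The lists they deposited give the positions (bp) of intervals and no other value. No read count or depth is given, so precision per interval is unknown. Replicates named by the labels could not be compared, being merged in the lists.

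Intervals were matched to TSSs of GENCODE 44 lifted to GRCh37, whereas the paper used an earlier release. The canonical TSS is that of the transcript tagged as canonical. Promoter sequences were read from GRCh37. Overlap and motif functions were tested on simulated data and equalled a direct search in 100% of 500 and 2000 cases. Python 3.11.15, numpy 2.4.6, scipy 1.17.1, pysam 0.24.0 and matplotlib 3.10.9 were used.

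The genes, their roles, the lists of letters and the 34 other genes were chosen with earlier results of these data known. Every member was accounted for. The alternatives were other windows, TSS sets, overlap rules, width limits, motif definitions and the lower-confidence lists. Some items are not reported here.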

Additional observations from a re-analysis of the deposited data

How the results depend on the processing

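Of 71 alternative values, 67 stayed within 1.5 times the count, or within the interval of the share, as reported. Giving each interval only to the gene with the nearest coding start raised the members with no interval from 2 to 8. Over all genes the share with none was 41.1% before and 46% under that rule. With loops of up to 12 bases the share of K562 intervals with a motif was 47.2% (50.9% over all gene starts), and with runs of at least 2 G it was 97.2% in K562 and 92.7% in HepG2 (91.1% and 85.8% over all), since both definitions accept more sequences. No paired analysis was possible because the lists merge the replicates and no test was run, and leaving out single replicates was not possible for the same reason. Depth is unknown, so an absent interval says only that the calling rule was not met.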

Other observations

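Another 34 genes of DNA replication and its nucleotide supply, also chosen with earlier results known, were scored in the same way. High-confidence intervals were present at 24 genes in K562 (70.6%, 53.8 to 83.2), 21 in HepG2 (61.8%, 45.04 to 76.1) and 19 in both, where the shares over all genes were 35.7%, 30.7% and 24.3%. Among the 19 were RRM1 and RRM2, the subunits of ribonucleotide reductase, TK1, the fork protector genes TIPIN and CLSPN, and CHAF1A and CHAF1B of the histone chaperone CAF-1. K562 alone had one at POLA1, TIMELESS, DNA2, LRWD1 and RNASEH2B (14.7%, all genes 11.4%), and HepG2 alone at TICRR and MCMBP (5.88%, all genes 6.47%). TOPBP1, MTBP, DSCC1 and ATAD5 had no interval in any list (11.8%, all genes 41.1%).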
